A study of Mus musculus with 1470 samples.

Results

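The 8 genes described here, Hmgcs1, Sqle, Idi1, Insig1, Srebf1, Fasn, Scd1 and Scd2, belong to the synthesis of sterols and fatty acids. They were found by symbol and make up 8 of the 14915 gene rows in a table of single liver cells. The cells were non-parenchymal cells (NPCs, the cells of the liver other than hepatocytes) of wild-type male C57BL/6J mice. High-fat diet (HFD) mice received a diet with 60% of its calories from fat for 9 weeks, beginning at 5 weeks of age, and normal diet (ND) mice received chow. Cells were sorted singly into wells, their libraries were made by Smart-seq2, which covers whole transcripts and has no molecular identifiers, and the table holds 718 cells of 3 ND mice and 752 cells of 3 HFD mice.

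Cells make cholesterol from acetyl-CoA through the mevalonate pathway, and make fatty acids from the same precursor through acetyl-CoA carboxylase and fatty acid synthase. Genes of both routes are switched on by the sterol regulatory element binding proteins (SREBPs), transcription factors that are held in the endoplasmic reticulum by INSIG proteins while sterols are plentiful. Srebf1 encodes the SREBP best known for fatty acid genes and Srebf2 the one best known for sterol genes. The liver is a main site of both syntheses, and there hepatocytes carry most of it.

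Cells were placed in 10 classes by clustering without the genes of any list used here, and each class was named from its markers. The classes are called B cell-like, T cell-like, endothelial-like and so on, written below without the ending. Endothelial cells (488), B cells (252), Kupffer cells (236, the resident macrophages of the liver) and T cells (16 to 75 per mouse) had at least 5 cells in every mouse. NK cells (49), hepatocytes (35), erythrocytes (33), monocyte-derived or dendritic cells (32), plasmacytoid dendritic cells (26) and neutrophils (14) were fewer. Of 10 markers each, 10 were detected at 1 RPKM or more in at least 25% of the cells in the plasmacytoid dendritic class and 9 in the hepatocyte class. When cells were classed by their highest marker mean, 69.2% of the plasmacytoid dendritic cells and 69.8% of the T cells kept their class, against 90.5% to 97.5% of the other large classes. The share was 65.6% in the monocyte-derived or dendritic class. The 2 plasmacytoid dendritic cells of ND mouse 2 had a mean of 5.34 for the markers of their class and 3.59 for B cell markers. Each level is the mean of log2(RPKM + 1) over the cells that a mouse had in the class, and RPKM is a number of reads scaled by transcript length and by the reads of the cell. Values are thus comparable between genes, and differences on this scale understate the change of low genes.

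The cells of HFD mouse 2 stood apart from the others. Their median was 1595.5 genes per cell against 2363.5 to 3163 in the other 5 mice, and 30 of its 30 Kupffer cells, 58 of its 60 B cells, 73 of its 75 T cells and 100 of its 107 endothelial cells fell in clusters whose median was 1540 to 1858 genes. HFD mouse 3 had the highest mean of 10 hepatocyte markers in each of the 4 large classes, and 18 of its cells, against 0 in the other 5 mice, carried neutrophil granule transcripts (3 or more of Ltf, Lcn2, Camp and Ngp, each reaching 10 RPKM). Hepatocyte transcripts were found in cells of every class. The mean marker level over the mice was 8.99 in hepatocytes, 5.23 in Kupffer cells, 3.41 in endothelial cells, 2.47 in B cells, 1.82 in T cells and 1.36 in plasmacytoid dendritic cells. Their part in the levels below was not tested, except where a value is given.

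Most sterol synthesis genes had their highest mean in the small class of plasmacytoid dendritic cells. Hmgcs1 encodes the cytosolic HMG-CoA synthase, an early enzyme of the mevalonate pathway. In plasmacytoid dendritic cells the Hmgcs1 level was 4.71, 3.72 and 7.64 in ND mice 1, 2 and 3 and 4.98, 2.19 and 2.71 in HFD mice 1, 2 and 3. The mean was 4.32 ± 1.95 (SD, n = 6 mice), and the lowest of these mice lay above every mouse in Kupffer, endothelial, B and T cells. Hepatocytes were alike in level, with a mean of 4.18 ± 1.84 (SD, n = 6 mice) and a highest mouse of 6.35. The plasmacytoid values rest on 8, 2 and 2 cells in the ND mice and 6, 3 and 5 in the HFD mice, so no test between classes was made for this class.

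Sqle encodes squalene epoxidase, the first oxygen-using step towards lanosterol. Its level in plasmacytoid dendritic cells was 3.54, 0.00 and 3.62 in ND mice 1, 2 and 3 and 2.95, 5.41 and 2.76 in HFD mice 1, 2 and 3. In 5 of the 6 mice it was above 2.7, and in ND mouse 2, with 2 such cells, it was listed at 0. No other class reached a mean of 1, and the next was 0.55 ± 0.30 (SD, n = 6 mice) in T cells. Hepatocytes, which shared the high Hmgcs1 level, had a Sqle mean of 0.32 ± 0.53 (SD, n = 6 mice).

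Idi1 encodes the isomerase that supplies dimethylallyl diphosphate, and it was low throughout. Its highest class means were 0.72 ± 0.59 in hepatocytes and 0.70 ± 0.62 in plasmacytoid dendritic cells (SD, n = 6 mice), and it was found at 1 RPKM or more in 8 of 26 plasmacytoid dendritic cells against 4 of 488 endothelial cells. Insig1, the sterol-sensing retention protein and itself an SREBP target, had means of 1.82 ± 1.73 in hepatocytes, 1.76 ± 1.43 in plasmacytoid dendritic cells and 1.15 ± 0.93 in monocyte-derived or dendritic cells (SD, n = 6 mice). In plasmacytoid dendritic cells its level was 2.33, 0.00 and 0.00 in ND mice 1, 2 and 3 and 2.66, 2.14 and 3.44 in HFD mice 1, 2 and 3. The 2 mice at 0 are those with 2 cells each.

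**Figure D1:**
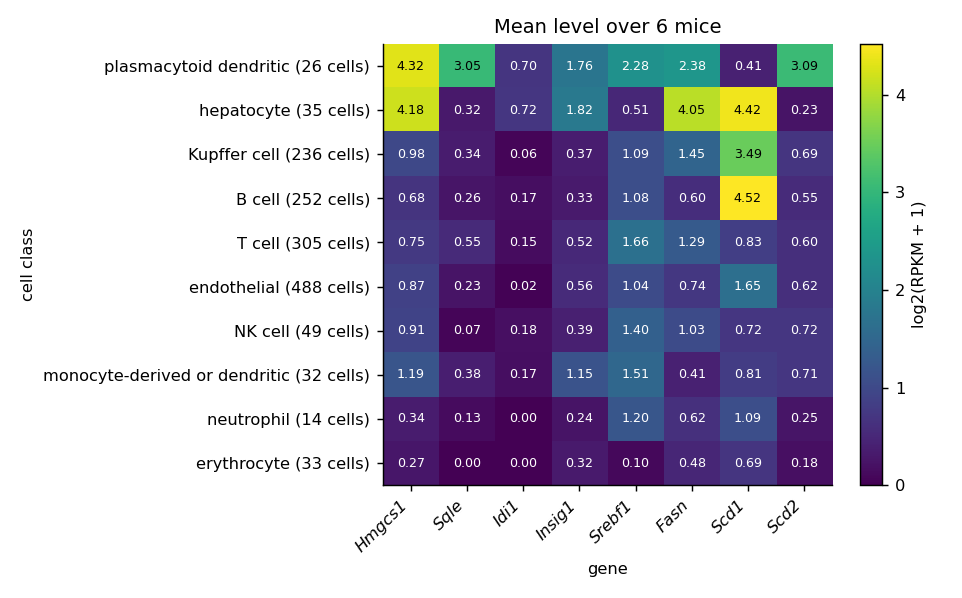
Mean level over 6 mice, in log2(RPKM + 1), of the 8 genes (columns) in the 10 cell classes (rows, with cell numbers), as colour and as the printed value. Sqle and Scd2 stand out in plasmacytoid dendritic cells, Hmgcs1 in these and in hepatocytes, Scd1 in B cells, hepatocytes and Kupffer cells, and Fasn in hepatocytes.

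The starts of Hmgcs1, Insig1 and Idi1, whose 2 highest class means were all in hepatocytes and plasmacytoid dendritic cells, are shown because these sterol genes are textbook SREBP targets. Fasn had the same 2 highest classes and a promoter entry, but its start is not shown. Each line gives the 250 bases before the annotated start (RefSeq, GRCm38.p6, plus strand), with matches to TCACNCCAC (a core of the sterol regulatory element), CCAAT (bound by NF-Y) and GGGCGG (bound by Sp1) in capitals, on either strand. Hmgcs1 lies at chr13:119690101-119690350, Insig1 at chr5:28071162-28071411 and Idi1 at chr13:8885356-8885605.
Hmgcs1: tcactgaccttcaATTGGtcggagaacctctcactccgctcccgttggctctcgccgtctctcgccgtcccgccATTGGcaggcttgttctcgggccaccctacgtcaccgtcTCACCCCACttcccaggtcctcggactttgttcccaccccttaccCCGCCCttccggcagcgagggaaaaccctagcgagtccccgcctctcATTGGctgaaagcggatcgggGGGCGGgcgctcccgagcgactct
Insig1: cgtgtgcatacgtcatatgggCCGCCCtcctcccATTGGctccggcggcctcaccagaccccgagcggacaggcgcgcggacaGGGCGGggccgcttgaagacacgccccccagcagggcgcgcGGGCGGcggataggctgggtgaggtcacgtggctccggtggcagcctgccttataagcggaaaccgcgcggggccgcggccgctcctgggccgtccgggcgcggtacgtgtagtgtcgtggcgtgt
Idi1: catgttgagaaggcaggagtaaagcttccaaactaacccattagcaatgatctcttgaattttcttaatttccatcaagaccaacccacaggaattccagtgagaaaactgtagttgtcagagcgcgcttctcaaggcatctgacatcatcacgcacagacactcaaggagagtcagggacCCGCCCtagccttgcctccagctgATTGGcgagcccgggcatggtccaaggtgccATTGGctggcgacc

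Of the 8 genes, 5 had promoter entries, with 7 starts because Srebf1 has 3. The search window ran from 250 bases before to 50 bases after each start. TCACNCCAC was found in 1 of the 7 promoters, that of Hmgcs1, and in 1.24% of all 32851 promoters of the same length. A longer form of the sterol regulatory element, 10 bases without an open position, was found in 0 of the 7 and in 0.0913% of all promoters. CCAAT was found in 6 of the 7 and in 37.4% of all promoters, and Hmgcs1 held 4 copies. GGGCGG was found in 5 of the 7 and in 35.7% of all promoters. CANNTG, the E-box, was found in 7 of the 7 and in 72.3% of all promoters.

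The other genes of the sterol route were followed with a list of 21 enzymes that includes Hmgcs1, Sqle and Idi1. Of these, 20 reached a mean of 1 in at least 1 class, and 18 of the 20 had their highest class mean in plasmacytoid dendritic cells. Of the 8 genes followed here, 7 reached that mean and 4 were highest in this class, Hmgcs1, Sqle, Srebf1 and Scd2. The share over all 8232 genes that reached a mean of 1 was 31.7%, the largest share of the 10 classes. A gene can reach this mean only in the class where it is then counted as highest, as Sqle and Scd2 did. Of the 21 enzymes, 3 reached it in a large class. The counts are thus descriptions and not tests. Among the enzymes, Lbr, a sterol reductase of the nuclear envelope, had a mean of 5.22 ± 1.80, Fdps, which makes farnesyl diphosphate, 4.66 ± 2.09, and Msmo1, a sterol demethylase, 4.28 ± 3.15 (SD, n = 6 mice). Tm7sf2 and Nsdhl were the 2 whose highest mean was in hepatocytes, at 1.20 and 1.05.

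Plasmacytoid dendritic cells also had more genes per cell, with a median of 3450 against 2309.5 to 2599 in the 4 large classes. Their median reads per cell ran from 138247 to 604453 over the mice, against 61908 to 241225 in the 4 large classes. The selection below was by gene number, and reads per cell were not matched. When only cells with at least 3450 genes were kept, Sqle was at 1 RPKM or more in 8 of 13 plasmacytoid dendritic cells, 12 of 47 T cells, 9 of 26 Kupffer cells, 3 of 22 B cells and 8 of 76 endothelial cells. Hmgcs1 was found in 9 of 13 plasmacytoid dendritic cells, 16 of 26 Kupffer cells, 24 of 47 T cells, 11 of 22 B cells and 30 of 76 endothelial cells. Of the sterol list, 17 of 20 were then highest in plasmacytoid dendritic cells among 6 classes, against 29.9% of all genes.

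Scd2 and Scd1 are neighbours on chromosome 19 and encode stearoyl-CoA desaturases, which put the first double bond into saturated fatty acids, yet their levels went to different classes. Scd2 was high in plasmacytoid dendritic cells, with levels of 4.46, 0.00 and 1.28 in ND mice 1, 2 and 3 and 4.25, 4.74 and 3.82 in HFD mice 1, 2 and 3. All 3 HFD mice and ND mouse 1 lay above 3.8. All other classes had Scd2 means between 0.18 and 0.72. Scd1, the desaturase of hepatocytes and adipose tissue, was low in plasmacytoid dendritic cells, with a mean of 0.41 ± 0.29 (SD, n = 6 mice).

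**Figure D2:**
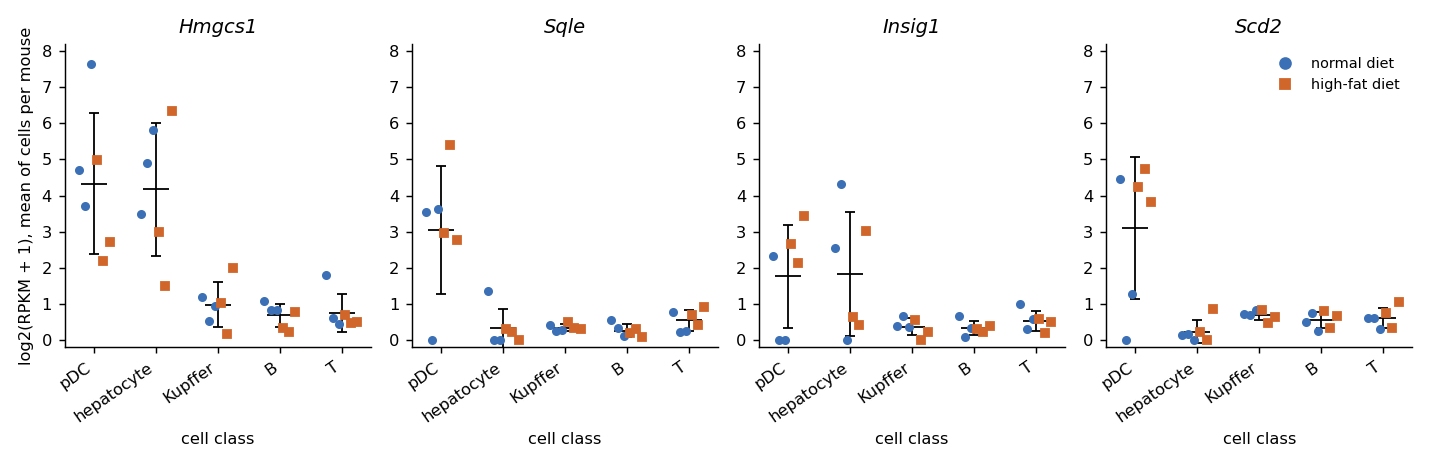
Levels of Hmgcs1, Sqle, Insig1 and Scd2 in log2(RPKM + 1), 1 point per mouse (circles ND, squares HFD), with the mean and SD over 6 mice as bars, in plasmacytoid dendritic cells (pDC), hepatocytes, Kupffer cells, B cells and T cells. The pDC points spread widely, from 0.00 to 5.41 for Sqle, but the large classes all lie near the bottom.

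Scd1 was the highest of the 8 genes in B cells, Kupffer cells, endothelial cells and hepatocytes. In B cells its level was 5.20, 4.04 and 5.20 in ND mice 1, 2 and 3 and 5.53, 3.05 and 4.12 in HFD mice 1, 2 and 3. It was found at 1 RPKM or more in 71.8% of 252 B cells (exact binomial 95% interval 65.8% to 77.3%, counting error only). In T cells, also lymphocytes, the level was 0.73, 0.78 and 0.83 in ND mice and 1.13, 0.43 and 1.10 in HFD mice, and 34.4% of the cells had 1 RPKM or more (29.1% to 40.1%). The lowest mouse in B cells was thus above the highest in T cells.

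In Kupffer cells the Scd1 level was 2.47, 4.83 and 4.24 in ND mice 1, 2 and 3 and 2.59, 2.20 and 4.64 in HFD mice 1, 2 and 3. In endothelial cells it was 1.99, 1.59 and 1.93 in ND mice and 0.88, 0.44 and 3.07 in HFD mice. In Kupffer cells both diets held mice with high and low levels, whereas in endothelial cells the ND mice lay between the HFD mice. Hepatocytes had a mean of 4.42 ± 1.76 (SD, n = 6 mice), with 4.61, 7.19 and 5.68 in ND mice 1, 2 and 3 and 3.10, 3.20 and 2.72 in HFD mice 1, 2 and 3. These levels rest on 1 to 12 cells per mouse, and only 1 ND mouse had 5 cells, so the diets were not compared.

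Each of the 4 large classes was compared with the mean of the other 3 within mice (limma with the mouse as a block, Benjamini-Hochberg adjustment over 5953 genes). Scd1 was higher in B cells by 2.53 ± 0.31 (SE, adjusted p = 2.77e-07, in 6 of 6 mice) and in Kupffer cells by 1.16 ± 0.31 (adjusted p = 0.00272, in 5 of 6 mice). It was lower in T cells, with a difference of -2.39 ± 0.31 (adjusted p = 3.84e-07, in 6 of 6 mice), and in endothelial cells, with -1.30 ± 0.31 (adjusted p = 0.000999, in 6 of 6 mice). The endothelial call was lost with averaging before the logarithm (-1.18, limma adjusted p = 0.102, from 0.000129 to 0.102 over the alternatives). Of all genes, 14.5% were called higher in B cells, 14.9% higher in Kupffer cells, 22.6% lower in T cells and 24.2% lower in endothelial cells. Lower calls were 45.4% in Kupffer cells and 33.8% in B cells, and calls in either direction were 60.3% in Kupffer and 64.4% in T cells.

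The order of Scd1 between neighbouring classes was B cells, Kupffer cells, endothelial cells and T cells. With signs flipped over the 6 mice, an exact two-sided test whose smallest possible p is 0.0312, Kupffer cells were above endothelial cells with p = 0.0312, and with Benjamini-Hochberg adjustment over the 24 comparisons of neighbours for all 8 genes p = 0.375. B and Kupffer cells differed by 1.03 ± 1.57 (SD of the differences, n = 6 mice, exact p = 0.188), with B cells higher in 4 of 6 mice. The adjusted threshold of 0.05 was practically out of reach with this smallest p and 24 comparisons, so the adjusted values say nothing about which neighbours are alike. The lowest value of 0.375 was shared by 1 other, Idi1 in T cells above Kupffer cells, at 0.15 against 0.06.

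Hepatocyte transcripts moved with Scd1 in some classes. In Kupffer cells the Scd1 level was 2.48 ± 1.29 in the 25% of cells of each mouse lowest in hepatocyte markers and 4.62 ± 1.45 in the 25% highest (SD, n = 6 mice), and the latter were above in 6 of 6 mice. In endothelial cells the same values were 0.88 ± 0.56 and 2.38 ± 1.39, again in 6 of 6 mice. In B cells the 25% lowest had 4.47 ± 1.10, with a hepatocyte marker mean of 1.02, and the 25% highest had 5.52 ± 1.58, above in 4 of 6 mice. With the 25% of cells highest in these markers left out of each class, the difference of B cells was 2.69 ± 0.28 and that of Kupffer cells 0.91 ± 0.28 (SE, limma adjusted p = 5.87e-08 and 0.00877), in a fit without HFD mouse 3, which had fewer than 5 cells left in a class.

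**Figure D3:**
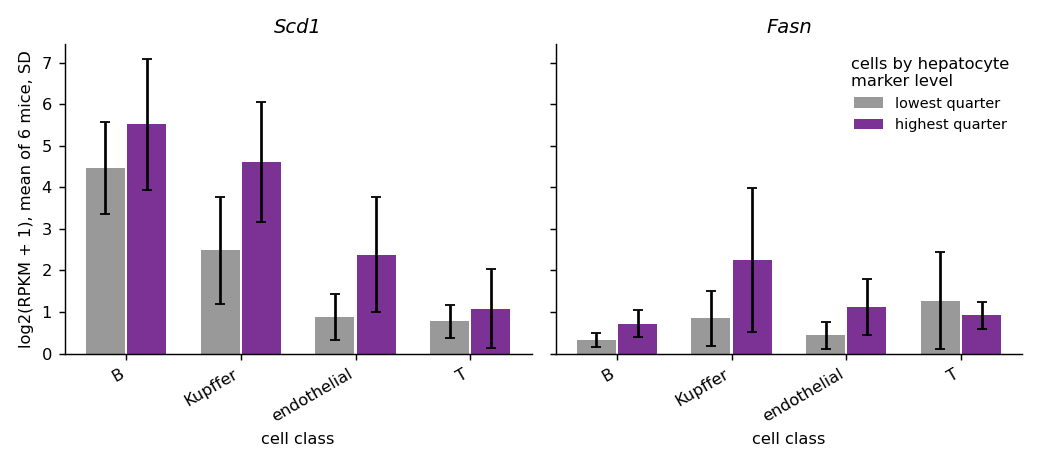
Level of Scd1 and Fasn in log2(RPKM + 1) in the 25% of cells of each mouse with the lowest (grey) and the highest (purple) mean of 10 hepatocyte markers, by cell class, with bars for the mean and lines for the SD over 6 mice. In B cells the grey Scd1 bar stands at 4.47, while in Kupffer cells it is 2.48 against 4.62.

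Fasn encodes fatty acid synthase, which assembles palmitate. It was highest in hepatocytes, with a mean of 4.05 ± 1.95 (SD, n = 6 mice), followed by plasmacytoid dendritic cells with 2.38 ± 1.35. In Kupffer cells the Fasn level was 1.22, 1.66 and 1.61 in ND mice 1, 2 and 3 and 0.76, 0.56 and 2.89 in HFD mice 1, 2 and 3. The highest and the lowest of these mice were both on HFD, and their hepatocyte marker means in Kupffer cells, 6.54 in HFD mouse 3 and 2.86 in HFD mouse 2, were also the highest and the lowest, with 5.20 to 5.98 in the others. So were their median genes per Kupffer cell, 3106 and 1379.5, with 1997.5 to 2657 in the others. Fasn was higher in Kupffer cells than in the other large classes by 0.57 ± 0.21 (SE, limma adjusted p = 0.0212, in 5 of 6 mice). It was lower in B cells, with a difference of -0.56 ± 0.21 (adjusted p = 0.0295, in 6 of 6 mice). The Kupffer difference was 0.24 ± 0.18 (adjusted p = 0.253) without both the cells highest in hepatocyte markers and HFD mouse 3, and 0.36 without that mouse alone. Within Kupffer cells Fasn was 0.85 ± 0.66 in the 25% of cells lowest in these markers and 2.25 ± 1.73 in the 25% highest (SD, n = 6 mice, higher in 5 of 6). The same values were 0.44 ± 0.33 and 1.13 ± 0.67 in endothelial cells (higher in 6 of 6), and 0.33 ± 0.16 and 0.72 ± 0.33 in B cells (5 of 6). In T cells they were 1.27 ± 1.16 and 0.92 ± 0.32 (higher in 4 of 6). The Kupffer call was also lost without ND mouse 2, ND mouse 3 or HFD mouse 3, with differences of 0.47 and 0.53 for the ND mice, and the limma adjusted p ran from 0.00592 to 0.594 over 14 alternatives. The B cell call was lost without ND mouse 1, 2 or 3, with differences of -0.51, -0.52 and -0.56 (limma adjusted p from 0.0108 to 0.13 over the alternatives). In T cells the difference was 0.36 ± 0.21 (limma adjusted p = 0.135), and it was 0.62 without HFD mouse 3 (0.00528, from 0.000869 to 0.486 over the alternatives).

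Srebf1 encodes the SREBP of the fatty acid genes. Its level in T cells was 1.86, 1.62 and 1.02 in ND mice 1, 2 and 3 and 2.35, 1.07 and 2.05 in HFD mice 1, 2 and 3, and the means of Kupffer, B and endothelial cells lay between 1.04 and 1.09. The T cell difference from the other large classes was 0.59 ± 0.19 (SE, limma adjusted p = 0.0101, in 5 of 6 mice), beside 41.7% of all genes called higher in T cells, and the call was lost without ND mouse 2 (0.48, limma adjusted p = 0.0598), without HFD mouse 1 (0.46, 0.0672) and with averaging before the logarithm (0.81, 0.248). The adjusted p ran from 0.00128 to 0.248 over the alternatives. In plasmacytoid dendritic cells the mean was 2.28 ± 1.73 (SD, n = 6 mice). Hmgcs1, Sqle, Idi1, Insig1 and Scd2 did not reach a mean of 1 in any of the large classes and were not in the limma fit, so 3 of the 8 genes were.

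**Figure D4:**
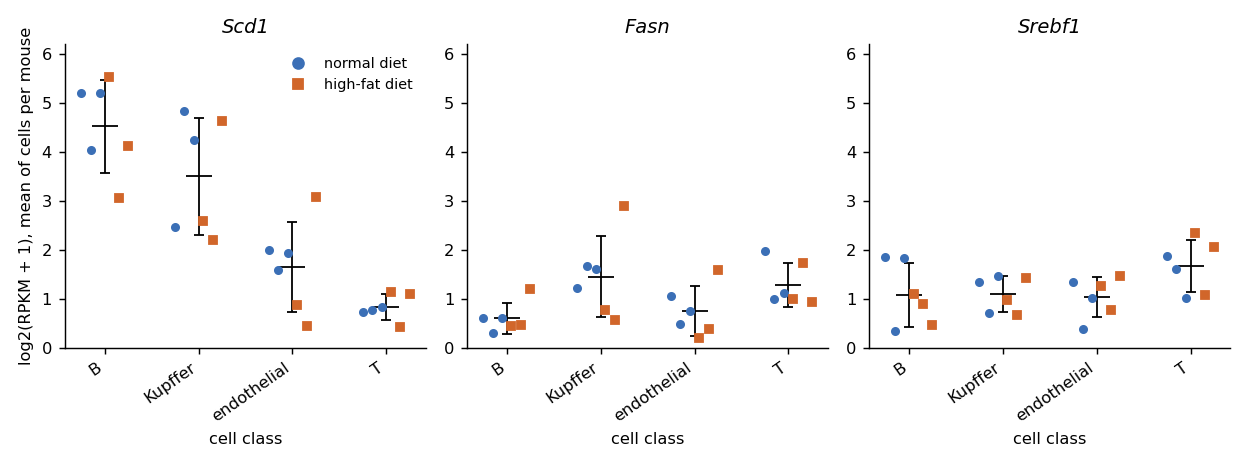
Levels of Scd1, Fasn and Srebf1 in log2(RPKM + 1), 1 point per mouse (circles ND, squares HFD), with the mean and SD over 6 mice as bars, in B, Kupffer, endothelial and T cells. Scd1 runs from a mean of 4.52 in B cells to 0.83 in T cells, whereas Srebf1 stays between 1.04 and 1.66.

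Genes of the wider lists also differed between the large classes. Of the 13 genes of the SREBP control list, 7 were tested, of which 1 was called higher and 3 lower in Kupffer cells (14.9% and 45.4% of all genes), 1 and 2 in endothelial cells (24.5% and 24.2%), 1 and 1 in B cells (14.5% and 33.8%) and 2 and 2 in T cells (41.7% and 22.6%). Srebf2 was higher in B cells (95% interval of the difference 1.09 to 1.90, limma adjusted p = 8.83e-07) and lower in Kupffer cells, with a difference of -1.05 ± 0.20 (SE, adjusted p = 9.12e-05), and in endothelial cells, with -0.85 ± 0.20 (adjusted p = 0.000775). Nr1h3, the sterol-sensing receptor LXR alpha that switches on Srebf1, was higher in Kupffer cells by 4.18 ± 0.23 (adjusted p = 6.67e-14) and lower in endothelial, B and T cells, with -1.07, -1.47 and -1.64 ± 0.23 (adjusted p = 0.000302, 8.67e-06 and 1.08e-06). Mylip, a ubiquitin ligase switched on by LXR, was higher in endothelial cells by 2.25 ± 0.22 (adjusted p = 2.98e-09) and lower in Kupffer and T cells, with -1.45 and -0.95 ± 0.22 (adjusted p = 5.13e-06 and 0.000651). Mbtps1, a protease that releases the SREBPs, was lower in Kupffer cells, with -0.74 ± 0.15, and higher in T cells by 0.44 ± 0.15 (adjusted p = 0.000161 and 0.011).

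Of the 18 genes of fatty acid synthesis, 7 were tested, Fasn and Scd1 among them. In B cells 1 was called higher, Scd1, and 4 lower, Fasn, Acly, Elovl5 and Fads1, with a list median of -0.56 against -0.20 over all genes tested. Acly, which makes cytosolic acetyl-CoA, was lower in B cells, with a difference of -1.11 ± 0.20 (SE, limma adjusted p = 7.79e-05), as were Elovl5 and Fads1, with -0.85 ± 0.21 and -0.65 ± 0.17 (adjusted p = 0.00212 and 0.00229). The shares of all genes in B cells were 14.5% higher and 33.8% lower. In Kupffer cells 3 of 7 were called higher and 1 lower (14.9% and 45.4% of all genes), with a median of 0.26 against -0.34 over all genes. Beside Fasn and Scd1, Acly was higher there by 0.60 ± 0.20, and Elovl5 was lower, with -0.74 ± 0.21 (adjusted p = 0.014 and 0.00515). In T cells 2 of 7 were higher and 1 lower, beside 41.7% and 22.6% of all genes, and those higher were Elovl5, by 1.03 ± 0.21, and Acly, by 0.73 ± 0.20 (adjusted p = 0.000201 and 0.00316). In endothelial cells 3 of 7 were higher and 1 lower, beside 24.5% and 24.2% of all genes, and those higher were the elongase and desaturase genes Elovl5 and Fads1, by 0.55 ± 0.21 and 0.85 ± 0.17, and Thrsp, by 0.51 ± 0.17 (adjusted p = 0.036, 0.000127 and 0.0144). Acly, Fasn, Fads1 and Thrsp had their highest class mean in hepatocytes. The mean of hepatocyte markers was 5.23 in Kupffer, 3.41 in endothelial, 2.47 in B and 1.82 in T cells. The part of hepatocyte transcripts in these list counts and medians was not tested. Without both the cells highest in these markers and HFD mouse 3, the Fasn difference in Kupffer cells was 0.24 (limma adjusted p = 0.253).

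Of the 21 sterol enzymes, 3 were tested in the large classes. Sc5d and Lbr were higher in T cells, by 0.78 ± 0.13 and 1.37 ± 0.23 (SE, limma adjusted p = 9.2e-06 and 2.14e-05). Lbr was lower in Kupffer cells, with a difference of -1.21 ± 0.23 (adjusted p = 0.000126), and Sc5d was lower in endothelial cells, with -0.53 ± 0.13 (adjusted p = 0.000882). No sterol enzyme was called in B cells, where 48.3% of all genes were called in either direction.

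Across the 24 means of 4 large classes in 6 mice, the profile of Scd1 was most like those of Fgd2, with Pearson's r of 0.94, and Ncf1, with 0.93. The closest for the sterol enzymes were Adh5 (0.83) and Ypel5 (0.79) for Hmgcs1, Birc2 (0.79) and Ccdc55 (0.73) for Idi1, and Bms1 and Prex1 (0.80 each) for Sqle. They were Sugt1 and Dnm2 (0.76 and 0.75) for Insig1, Reep4 and Mybbp1a (0.81 and 0.80) for Srebf1, Ppp1r9b and 1500011K16Rik (0.80 and 0.79) for Fasn, and Arl6ip1 and Ndufc2 (0.73 and 0.71) for Scd2. Among the 8 genes themselves the highest values were 0.63, for Hmgcs1 with Fasn and for Sqle with Srebf1. Means of the same mouse share its depth, so these values are descriptions.

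The diets were compared within the classes that had at least 5 cells in at least 2 mice per diet. With limma on the mean per mouse, 0 of the tested members were called in any of the 6 classes at an adjusted p of 0.05, and 0 had an unadjusted p under 0.05. The tested members were Scd1, Fasn and Srebf1 in Kupffer cells, Scd1 and Srebf1 in endothelial and in B cells, Fasn and Srebf1 in T and NK cells, and Hmgcs1, Insig1, Srebf1 and Scd2 in monocyte-derived or dendritic cells. Over all genes 0% were called in each of the 6 classes, and 2.06%, 2.29%, 3.31%, 2.88%, 5.9% and 6.68% in Kupffer, endothelial, B, T, NK and monocyte-derived or dendritic cells had an unadjusted p under 0.05. No member was called with a mean-variance trend or with each gene's own spread.

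For Scd1 the HFD minus ND difference in Kupffer cells was -0.71 ± 0.73 (SE, 95% interval -2.28 to 0.87, limma adjusted p = 0.999), from the mouse values given above, which overlapped. It was -0.21 without ND mouse 2, -0.43 without HFD mouse 1, -0.23 without HFD mouse 2, -1.39 without ND mouse 1 and -1.45 without HFD mouse 3. In B cells it was -0.58 ± 0.61 (-1.87 to 0.70, adjusted p = 0.999) and in endothelial cells -0.37 ± 0.57 (-1.56 to 0.82, adjusted p = 0.999). In B cells it was 0.0097 without HFD mouse 2, -0.97 without ND mouse 2 and -1.23 without HFD mouse 1. In endothelial cells it was 0.14 without HFD mouse 2, -0.078 without HFD mouse 1 and -1.17 without HFD mouse 3. In Kupffer cells the Fasn difference was -0.09 ± 0.61 (-1.42 to 1.24), and it was 0.33 without HFD mouse 2, 0.23 without HFD mouse 1 and -0.83 without HFD mouse 3. With averaging before the logarithm this Fasn difference was -1.48. For Srebf1 the differences ran from -0.52 in B cells to 0.32 in T cells in the large classes, with standard errors of 0.44 to 0.56. In B cells the Srebf1 difference was -1.03 without ND mouse 2 and -0.35 without HFD mouse 3. In T cells it was 0.062 without HFD mouse 1 and 0.70 without HFD mouse 2. The median over all genes tested was itself below 0 in the large classes, at -0.19 in Kupffer, -0.16 in endothelial, -0.27 in B and -0.26 in T cells.

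**Figure D5:**
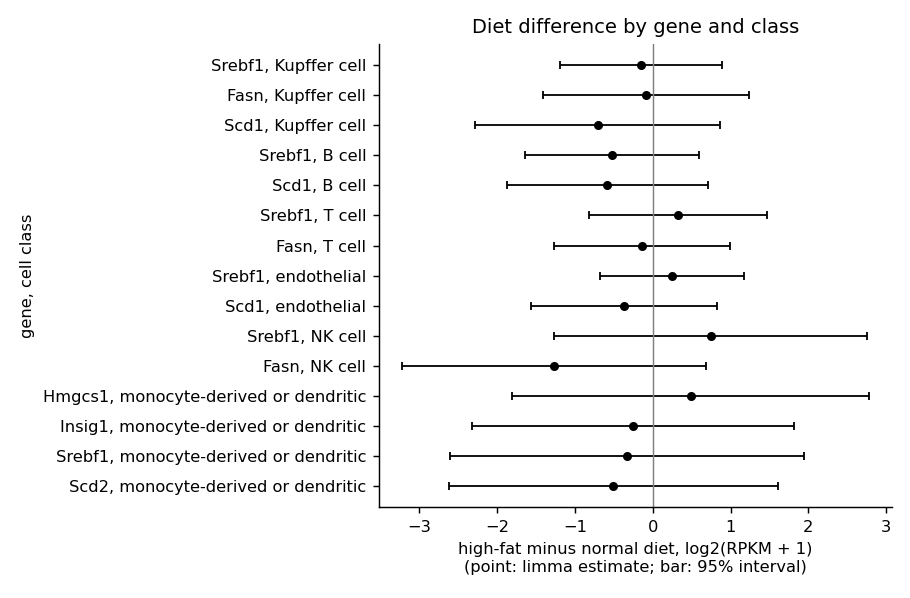
HFD minus ND difference in log2(RPKM + 1) (points, limma) with 95% intervals (bars) for each gene and class in which the gene had a mean of at least 1. Every interval covers 0, and those of the small NK and monocyte-derived or dendritic classes are the widest.

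Among members too low for the fit, Insig1 in endothelial cells was 0.74, 1.01 and 0.67 in ND mice 1, 2 and 3 and 0.37, 0.09 and 0.50 in HFD mice 1, 2 and 3. All 3 HFD mice were below all 3 ND mice, with an exact two-sided permutation p of 0.1, the smallest that 3 against 3 mice allow. Hmgcs1 in B cells was 1.07, 0.84 and 0.84 in ND mice and 0.34, 0.22 and 0.77 in HFD mice, also without overlap (exact permutation p = 0.1). Of all genes tested, 4.99% in endothelial cells and 9.4% in B cells had every HFD mouse below every ND mouse, and these 2 genes were 1 of 8 members in each class. The genes tested had a mean of at least 1, which Insig1 and Hmgcs1 did not reach here. The shares and the counts over 8 members, here and below, thus cover unlike sets. In Kupffer and T cells the diets overlapped for all 8 members, where 5.79% and 6.54% of all genes did not overlap in either direction (5.09% and 6.29% with every HFD mouse lower).

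NK cells had 3 ND and 2 HFD mice with at least 5 cells, and monocyte-derived or dendritic cells 2 of each. Fasn in NK cells was 1.89, 1.49 and 1.40 in ND mice 1, 2 and 3 and 0.00 and 0.65 in HFD mice 1 and 2, a difference of -1.27 ± 0.95 (SE, limma adjusted p = 0.887). The groups did not overlap for 3 of 8 members in NK cells and for 1 of 8 in monocyte-derived or dendritic cells, beside 21.9% and 37.4% of all genes tested. Of the 8 members, 2 and 4 were among the genes tested there.

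Whether the diet difference itself differed between the large classes was tested for each of the 6 pairs of classes. No member passed in any pair (limma, adjusted p at least 0.997), beside 0% of all genes, and the lowest unadjusted p was 0.107, for Srebf1 in endothelial against B cells.

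In the pathway lists, 0 genes were called between diets in any of the 6 classes. In Kupffer cells 2 of 21 sterol, 6 of 13 SREBP control and 7 of 18 fatty acid genes were tested, with median differences of -0.23, 0.28 and -0.38 beside -0.19 over all genes. In B cells the medians were -0.12, -0.07 and -0.05 over 2, 5 and 4 genes, beside -0.27.

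A cell of a large class had few of these transcripts at once. The median was 2 of the 8 genes in Kupffer and B cells, 1 in endothelial and T cells and 3 in plasmacytoid dendritic cells. At least 2 of the 4 sterol genes (Hmgcs1, Sqle, Idi1 and Insig1) were found in 14 of 26 plasmacytoid dendritic cells (53.8%), 11 of 35 hepatocytes (31.4%), 28 of 236 Kupffer cells (11.9%) and 15 of 252 B cells (5.95%). None of the 8 genes was found in 23.4% of endothelial cells and in 13 of 33 erythrocytes (39.4%).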

How the data were processed

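The authors aligned reads to mm10 with STAR and deposited RPKM values per RefSeq gene, with low-quality cells and Scrublet doublets already taken out. Count tests were not applied to RPKM. The low values of a cell, multiplied by transcript length, fell within 0.05 of a whole multiple of 1 read in 63.8% of cases, against 10.9% with shuffled lengths, which put the median depth per mouse at 88324 to 199826 reads on exons per cell. Each cell was mapped to its mouse by its label, and the mouse was the replicate. Values were taken as log2(RPKM + 1).

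Cells were grouped by spectral clustering (1000 variable genes, 20 principal components, 15 neighbours) into 15 clusters, the fewest from 12 to 25 that named all 10 classes. A cluster was named by the class with most markers among its 10 leading genes, with at least 3 markers detected. One endothelial cluster of 135 cells had no marker of any class among its 10 leading genes and was named by its mean marker difference, with 10 of 10 markers detected. This rule was revised after clusters were seen, judged only by their markers. The members, lists and tests were chosen with earlier results of these data known. Depth and gene numbers differ between classes.

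Diets were compared with limma 3.58.1 (R 4.3.3) without a mean-variance trend, using mice that had 5 or more cells and genes whose mean reached 1. Classes were compared with the mouse as a block, and neighbouring classes by exact sign flips. Adjustment was by Benjamini-Hochberg over all genes tested. The steps were tested on simulated data. All 8 members were named in each class, as were up to 10 list genes per comparison that passed an adjusted p of 0.05, and the genes outside the lists with the highest Pearson correlation. Same-numbered mice of the 2 diets are different animals, and their deviations from the diet means correlated between -0.23 and 0.20 in the 4 large classes, so they were not paired. Promoter sequences are from RefSeq (GRCm38.p6, the assembly of mm10). Alternatives covered pseudocounts, averaging, rescaling, filters, class formation and leaving out each mouse. The comparison of cells with at least 3450 genes and the alternatives for the sterol list were added after seeing the data. Python 3.11.15 and scikit-learn 1.9.0 were used. Some genes of the lists are not reported here by name.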

Additional observations from a re-analysis of the deposited data

How the results depend on the processing

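The higher Scd1 level in B and Kupffer cells and the lower level in T cells kept their direction and an adjusted p under 0.05 in all 14 alternatives, with differences from 1.58 to 3.34 in B cells, 0.65 to 2.27 in Kupffer cells and -4.43 to -1.41 in T cells. The lower level in endothelial cells kept both in 13 of 14, and with averaging before the logarithm it was -1.18 (limma adjusted p = 0.102). The number of members called in Kupffer cells fell from 2 to 1 with a pseudocount of 10, averaging before the logarithm, classes by highest marker mean, no filter on low values, and in the fit without both the cells highest in hepatocyte markers and HFD mouse 3, and to between 1 and 2 without single mice. In B cells it was 1 with 10 principal components, classes by highest marker mean or no filter, and 1 to 2 without single mice, and in T cells 1 to 3 without single mice and 3 with no filter or without both the cells highest in hepatocyte markers and HFD mouse 3. Some settings tested other members. In endothelial cells it was 0 when values were averaged before the logarithm and 2 with 10 principal components. Averaging before the logarithm gave 1387 genes higher in B cells, against 861, and no filter gave 1430 higher in Kupffer and 2492 in endothelial cells, against 887 and 1457. The cause was not tested.

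Between diets no member was called in any alternative, and all uncalled differences that changed sign are given here. With a pseudocount of 0.1 Fasn was 0.031 in Kupffer cells. With averaging before the logarithm Srebf1 was 0.45 and Scd1 0.10 in Kupffer cells, Fasn 0.66 in T cells, Hmgcs1 -0.14 in monocyte-derived or dendritic cells, and Srebf1 of Kupffer cells against the other classes 0.41. Hmgcs1 was -0.17 there with classes by highest marker mean, Fasn 0.0025 in T cells with 10 principal components, and Srebf1 -0.14 in T cells without both the cells highest in hepatocyte markers and HFD mouse 3. Without single mice, Scd1 ran from -1.45 to -0.21, Srebf1 from -0.38 to 0.028 and Fasn from -0.83 to 0.33 in Kupffer cells, Srebf1 from -0.021 to 0.45 and Scd1 from -1.17 to 0.14 in endothelial cells, Scd1 from -1.23 to 0.0097 in B cells, Fasn from -0.40 to 0.16 in T cells, and Srebf1 of B cells against the other classes from -0.36 to 0.012.

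Counts over all genes between diets, 0 in each class, became 1 lower in Kupffer cells with 10 principal components or without the cells highest in hepatocyte markers, and 1 lower in endothelial cells with a pseudocount of 0.1. A trend gave 1 higher in Kupffer, endothelial, B, T and NK cells and 1 lower in endothelial cells. Without single mice they ran from 0 to 1 lower in Kupffer, 0 to 1 higher and 0 to 49 lower in endothelial (49 without HFD mouse 3), 0 to 1 higher in T and 0 to 5 lower in NK cells. With the replicate number as a block, 3 genes were lower in NK cells, no member was called, and the Scd1 difference in B cells was -0.58 (limma adjusted p = 0.85). The numbers do not pair the mice.

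The count of sterol enzymes highest in plasmacytoid dendritic cells, 18 of 20, ran from 14 of 19 to 20 of 20 over the added alternatives, and that of members, 4 of 7, from 3 of 7 to 6 of 7. The lowest share over all genes, 12.6%, came with all cells averaged together before the logarithm, where the sterol count was 15 of 21. The highest, 37.9%, came with all cells of a class averaged together after the logarithm, where the sterol count was 20 of 20. Genes at low levels were not tested, and HFD mouse 2 had the fewest genes per cell.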

Other observations

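Genes of fatty acid synthesis were often highest in hepatocytes. Of the 18 on the list, 13 reached a mean of 1 in some class, and 7 of these were highest in hepatocytes (10.5% of all genes) and 4 in plasmacytoid dendritic cells, a share near the 31.7% of all genes. Thrsp, a lipogenic gene of liver, had a mean level of 7.45 ± 3.74 in hepatocytes, and Me1, the cytosolic malic enzyme that supplies NADPH, had 2.43 ± 1.06 there and 0.017 ± 0.042 in plasmacytoid dendritic cells (SD, n = 6 mice). Acly was 3.66 ± 2.99 in hepatocytes and 3.33 ± 2.47 in plasmacytoid dendritic cells, which differ by less than the spread between mice. Fads2, a desaturase of polyunsaturated fatty acids, had its highest mean in plasmacytoid dendritic cells, 2.72 ± 1.77.

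Among the SREBP control genes, Srebf1, Srebf2 and Scap were highest in plasmacytoid dendritic cells. Srebf2 had a mean of 4.06 ± 2.13 there (SD, n = 6 mice), and Scap encodes the escort of the SREBPs. These means rest on few cells per mouse and were not tested between classes.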
